A study of Mus musculus with 34 samples.

Results

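The TGF-β signaling genes described here are *Tgfb1*, *Tgfbr1*, *Tgfbr2*, *Smad2*, *Smad3*, *Smad4*, *Smad7*, *Ski* and *Skil*. They were chosen by name from 13108 gene rows, and all 9 were present. The choice was made because the level of *Tgfb1* was high in 1 group, the aged mice labelled as lacking *Ythdf2*. The comparison of genotypes in aged mice is therefore given for these genes as a description, without a test, and so is every value of *Tgfb1*, which was read in all groups when the choice was made.

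HSCs, sorted from mice as LSK CD48-CD150+ cells, were studied by RNA-seq in 4 groups, all on the C57BL/6 background. YTHDF2 binds m6A, a methyl mark on adenines of mRNA, and promotes the decay of the marked transcripts. *Ythdf2*CKO mice carried floxed *Ythdf2* alleles and *Vav-iCre*, a Cre transgene active in hematopoietic cells, and *Ythdf2*CTL mice carried the floxed alleles without Cre. The floxed allele also encodes a GFP fusion to YTHDF2, so CTL mice do not have an unmodified *Ythdf2* gene. There were 4 young CTL, 4 young CKO, 4 aged CTL and 5 aged CKO mice; the labels give 1 year for the aged mice and no number for the young mice. Each mouse gave 2 SMART-Seq2 libraries, A and B, of 100 cells, and their counts were added, so that the mouse was the replicate.

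TGF-β1, the product of *Tgfb1*, is made as a latent precursor and, once released, binds a receptor of TGFBR2 and TGFBR1 subunits. The active receptor phosphorylates SMAD2 and SMAD3, which enter the nucleus with SMAD4 and change transcription. SMAD7, SKI and SKIL (also called SnoN) hold the pathway back, SMAD7 at the receptor and SKI and SKIL on the SMAD complexes. In bone marrow the pathway is known for keeping HSCs quiescent, and megakaryocytes and platelets are known as a large store of TGF-β1.

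Totals ranged from 1859784 to 7784627 counts per library used and from 2218618 to 10125624 per mouse. Library B of aged CTL mouse 99, with 187034 counts, was left out, so that mouse rests on 1 library. A level below is CPM, TMM-scaled counts relative to a common library size, and a mean is given ± SD over mice. A count of 3 in a mouse equalled between 0.296 and 1.35 CPM, which covers counting error only, and the lowest count of any of the 9 genes in a mouse was 14. The 8 HSC markers were detected in all 17 mice, and *Cd48*, the negative marker of the sort, was at 53.6 to 87.9 CPM in young CTL, at 97.9 to 106 CPM in young CKO and at 0.625 to 28.5 CPM in aged mice, so that the young genotypes did not overlap for it. Because bulk RNA was measured, fewer cells of a type and less RNA per cell cannot be told apart.

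The targeted gene was examined first. *Ythdf2* was at 118, 124, 92.9 and 98.2 CPM in young CTL mice and at 55.8, 57.8, 60.0 and 50.6 CPM in young CKO mice, so the young groups did not overlap. The fall in young mice passed the test, with a log2 fold change of -0.95 (SE 0.17) and an adjusted p of 0.0406 (edgeR quasi-likelihood test, Benjamini-Hochberg over 11526 genes). The log2 fold change stayed between -1.01 and -0.87 when each young mouse was left out, but the call was lost in 7 of those 8 fits, all but that without CKO mouse 3, with adjusted p-values of 0.0768 to 0.211. In fits added after seeing the data, the same test also lost the call with a covariate for Y-linked expression (adjusted p = 0.169). So did the test with mouse number as a block (adjusted p = 0.128). In aged CTL mice 65, 99, 114 and 124, *Ythdf2* was at 178, 162, 142 and 71.3 CPM. In aged CKO mice 78, 81, 94, 121 and 122 it was at 75.4, 87.7, 73.7, 186 and 72.6 CPM. The mouse labelled aged CTL 124 thus lay below every other aged CTL mouse, and the mouse labelled aged CKO 121 lay above all 4 aged CTL mice. Both *Ythdf2* levels go against the labels, and the aged log2 fold changes of the 9 genes are given with and without these mice.

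The ligand gene *Tgfb1* lies at chr7:25687002-25705077 on the plus strand of GRCm38. It was at 157, 130, 150 and 142 CPM in young CTL mice 1 to 4 and at 179, 153, 60.9 and 214 CPM in young CKO mice 1 to 4. It was at 152, 186, 148 and 216 CPM in aged CTL mice 65, 99, 114 and 124, and at 358, 280, 305, 315 and 338 CPM in aged CKO mice 78, 81, 94, 121 and 122. The 3 other groups overlapped one another, and every aged CKO mouse lay above every mouse of those groups.

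**Figure D1:**
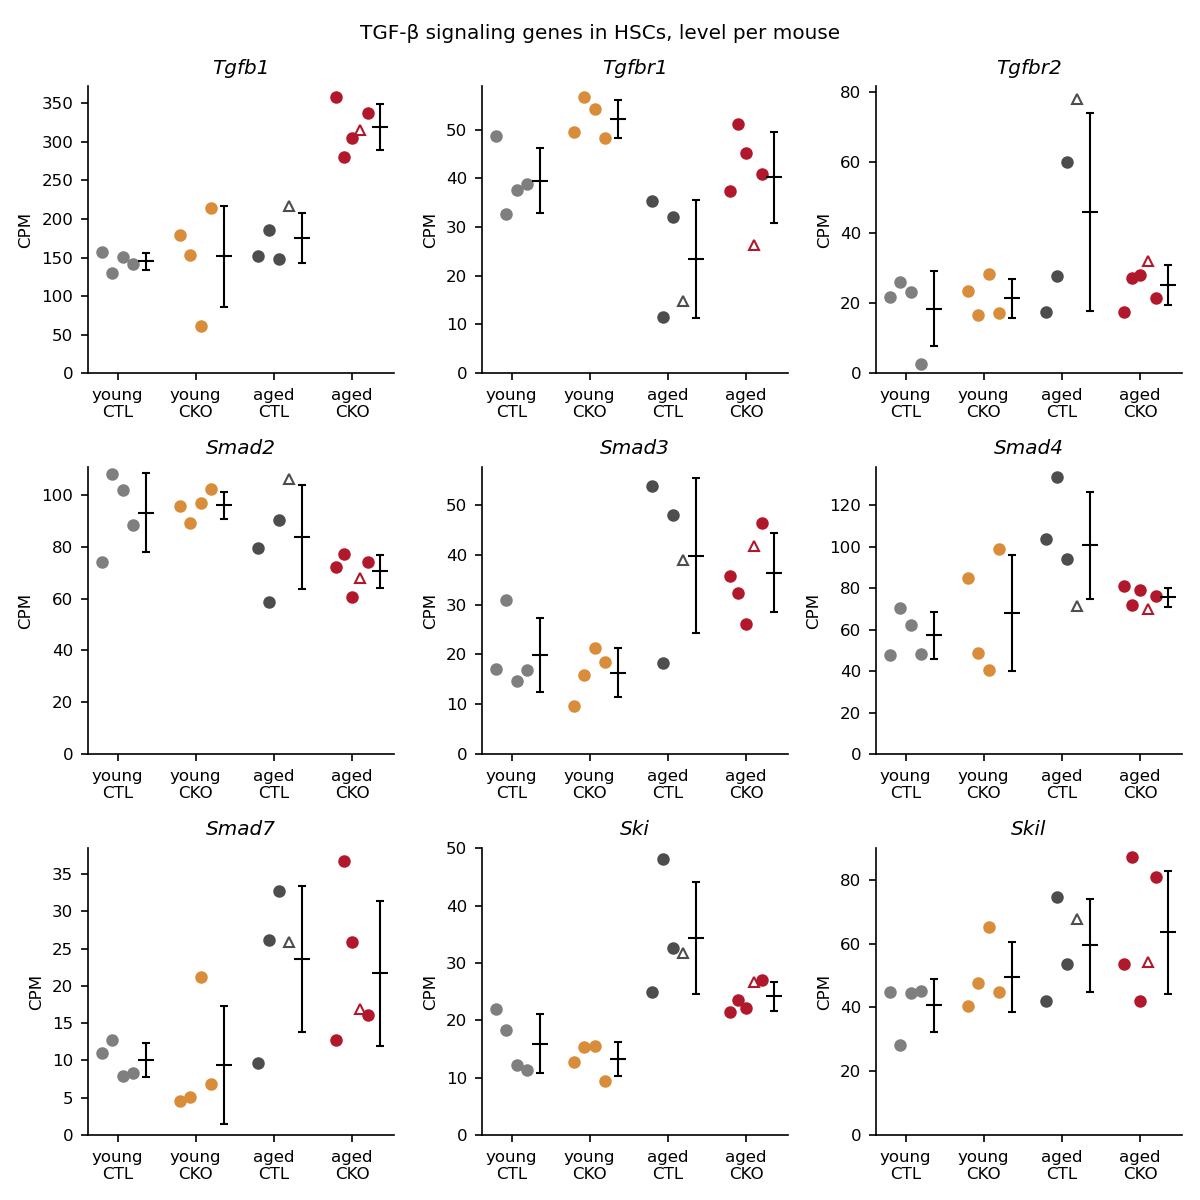
Level of each of the 9 TGF-β signaling genes, with CPM on the vertical axis from 0 and 1 point per mouse in the 4 groups; dashes and bars are the mean ± SD, and open triangles are the mice labelled aged CTL 124 and aged CKO 121. The 5 aged CKO mice sit between 280 and 358 CPM for *Tgfb1*, above all other mice, and the aged genotypes overlap for the other 8 genes.

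In aged mice, mean *Tgfb1* was 175 ± 32.0 CPM in CTL (n = 4) and 319 ± 29.9 CPM in CKO mice (n = 5), which is 1.83-fold higher and a log2 fold change of 0.87 (SE 0.17). These values chose the genes, so no test is given. The log2 fold change stayed between 0.79 and 0.97 when each mouse was left out in turn, and it was 0.97 without the mice labelled 121 and 124. The mouse labelled aged CKO 121, whose *Ythdf2* level was above those of the aged CTL mice, had 315 CPM of *Tgfb1*, within the range of the other aged CKO mice. The mouse labelled aged CTL 124, with little *Ythdf2*, had the highest aged CTL level. Across all genes, the aged groups did not overlap with CKO higher for 1.81% of 11961 genes, and *Tgfb1* was the only one of the 9 among them.

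**Figure D2:**
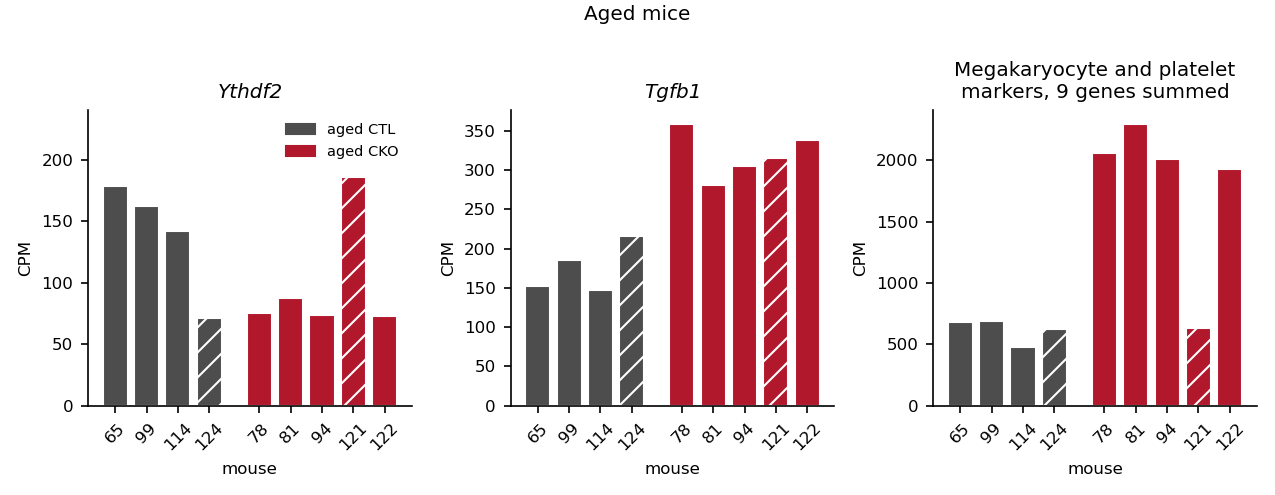
Bars show, for each of the 9 aged mice, the CPM of *Ythdf2*, the CPM of *Tgfb1* and the summed CPM of 9 megakaryocyte and platelet markers, each from 0; hatched bars are the mice labelled aged CTL 124 and aged CKO 121. *Tgfb1* is high in mouse 121, at 315 CPM, where *Ythdf2* is also high, at 186 CPM, and the marker sum is low, at 638 CPM.

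Markers of megakaryocytes and platelets were read in the same mice. The sum over the 9 listed markers found in the table, of 10, ranged from 476 to 694 CPM in aged CTL mice and from 1926 to 2293 CPM in 4 aged CKO mice, and it was 638 CPM in the mouse labelled aged CKO 121. All 9 marker genes had a positive aged log2 fold change, with a median of 1.09, and none passed the test. That mouse had the *Tgfb1* level of the other aged CKO mice with a marker sum in the range of the aged CTL mice. In young mice the sum was 602 to 976 CPM in CTL and 1126 to 3354 CPM in CKO, and young CKO mouse 3, with the highest sum, had the lowest *Tgfb1* level of all 17 mice. Of the 9 markers, 8 had a positive and 1 a negative young log2 fold change, with a median of 0.72, and 1 was called higher. *Pf4*, which encodes platelet factor 4, gave the most counts to the sum, and none of the 9 markers was at 0 in any mouse. The sum over 8 HSC markers was 1253 to 2387 CPM in aged CTL and 1577 to 1888 CPM in aged CKO mice, while summed lymphoid markers stayed at or below 103 CPM and erythroid markers at or below 135 CPM in every mouse, and the B cell marker *Ms4a1* was at 0 in all 17 mice. Summed myeloid markers ranged from 414 to 810 CPM in aged CTL and from 489 to 828 CPM in aged CKO mice. Most of that sum was *Lyz2*, with means of 573 and 593 CPM, so the sum says little of the other markers. Mean *Cd68* was 11.9 CPM in aged CTL and 36.2 CPM in aged CKO mice, and mean *Mpo* was 26.7 and 2.62 CPM. Of the 5 myeloid markers tested, 3 had a positive and 2 a negative aged log2 fold change, and none was called. The part of other cell types in the *Tgfb1* level was not tested beyond these values.

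The m6A mark is placed mostly at GGACT and similar short motifs, so the letters around GGACT in *Tgfb1* are shown. The searched motif was GGACT alone, on the transcript strand. The principal coding transcript of *Tgfb1* in GENCODE M21, of 2175 bases, held 5 matches, of which 2 were in the coding sequence, both in exon 1. The capitals mark GGACT within windows of 25 bases, the first at chr7:25687943-25687967 and the second at chr7:25688161-25688185, both on the plus strand of GRCm38.
Tgfb1 exon 1, coding position 85: gccagccgcgGGACTctccacctgc
Tgfb1 exon 1, coding position 303: agcccgaagcGGACTactatgctaa

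The positions count from the first base of the coding sequence to the first base of GGACT. At least 1 match was present in the transcripts of 91.8% of the 12452 genes of the table with a coding transcript, and in the coding sequence of 75.8%. *Tgfb1* held 2.30 matches per kb of transcript, and 92.8% of those genes held fewer per kb, against a median of 1.05. The other 8 genes held between 0.393 (*Smad3*) and 1.18 matches per kb (*Smad4*). A match is a description of these letters, and methylation at these sites was not analysed here.

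In young mice the genotypes overlapped for *Tgfb1*. Mean levels were 145 ± 11.5 CPM in CTL and 152 ± 65.5 CPM in CKO mice (n = 4 each), a log2 fold change of 0.07 (SE 0.27). Young CKO mouse 3, at 60.9 CPM, lay farthest from the others. The estimate was 0.33 without that mouse, -0.15 without young CKO mouse 4 and -0.01 without young CKO mouse 1, so the sign rests on single mice. Whether the genotype effect on *Tgfb1* differed between ages was not tested.

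None of the other 8 genes passed the quasi-likelihood test between the young genotypes, and none had young groups without overlap. Over all 11526 genes tested, 0.13% were called higher and 0.0434% lower in young CKO mice, and 4.72% had groups that did not overlap. Of the 8 genes, 5 had a positive and 3 a negative log2 fold change, with a median of 0.13, against a median of -0.000928 over all genes. The two-sided exact permutation p-values over mice, unadjusted, ranged from 0.0571 (*Tgfbr1*) to 0.943 (*Smad7*), where 4 against 4 mice cannot go below 0.0286, and every adjusted p of the quasi-likelihood test was at least 0.726.

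The receptor gene *Tgfbr1* (chr4:47353222-47414931, plus strand), which encodes the signaling subunit, came closest in young mice. It was at 48.8, 32.8, 37.7 and 38.9 CPM in young CTL mice and at 49.6, 56.7, 54.3 and 48.3 CPM in young CKO mice. Only CTL mouse 1 reached the range of the CKO mice. The log2 fold change was 0.41 (SE 0.20, 95% interval -0.03 to 0.84), with an adjusted p of 0.726, and it was 0.33 to 0.52 when each mouse was left out.

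In aged mice *Tgfbr1* was at 35.4, 11.4, 32.1 and 14.9 CPM in CTL mice 65, 99, 114 and 124, and at 37.5, 51.1, 45.3, 26.2 and 41.0 CPM in CKO mice 78, 81, 94, 121 and 122. The groups overlapped only through the mouse labelled CKO 121. The aged log2 fold change, given as a description, was 0.78 (SE 0.36), it was 0.70 without the mice labelled 121 and 124, and it was 0.60 when the shallow library of mouse 99 was added back. Between ages, *Tgfbr1* had log2 fold changes of -0.73 in CTL (adjusted p = 0.240) and -0.37 in CKO mice (adjusted p = 0.223, quasi-likelihood test), and neither passed.

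*Tgfbr2* (chr9:116084293-116175360, minus strand), which encodes the subunit that binds the ligand, varied widely among CTL mice. It was at 21.8, 26.0, 23.1 and 2.43 CPM in young CTL mice and at 23.4, 16.5, 28.2 and 17.2 CPM in young CKO mice. Aged CTL mice 65, 99, 114 and 124 were at 17.5, 27.7, 60.1 and 78.0 CPM, and aged CKO mice 78, 81, 94, 121 and 122 at 17.4, 27.2, 28.0, 31.8 and 21.3 CPM. Young CTL mouse 4 stood apart at 14 counts, and in aged mice 2 of the 4 CTL mice lay above the whole CKO range.

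The young log2 fold change of *Tgfbr2* was 0.22 (SE 0.50), and when each mouse was left out it ranged from -0.15, without young CTL mouse 4, to 0.43. With a covariate for Y-linked expression it was 1.34 and still did not pass the test; 3 of 4 young CTL mice and 1 of 4 young CKO mice had reads of Y-linked genes. In aged mice the log2 fold change was -0.85 (SE 0.39), a value that rested in part on the mouse labelled CTL 124: it was -0.49 without that mouse and -0.59 without both mice labelled 121 and 124. *Tgfbr1* and *Tgfbr2*, whose products form 1 receptor, thus had aged log2 fold changes of opposite sign.

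The receptor-regulated SMAD genes came next. *Smad2*, on chromosome 18, was at 74.0, 108, 102 and 88.3 CPM in young CTL and at 95.9, 89.2, 96.8 and 102 CPM in young CKO mice. In aged mice it was at 79.7, 58.8, 90.6 and 106 CPM in CTL mice 65, 99, 114 and 124, and at 72.2, 77.2, 60.7, 68.1 and 74.3 CPM in CKO mice 78, 81, 94, 121 and 122. The aged CKO levels lay within the aged CTL range and below every young CKO level. Its log2 fold change between genotypes was 0.05 (SE 0.17) in young mice, where it ranged from -0.05 to 0.13 when each mouse was left out, and -0.24 (SE 0.19) in aged mice. The aged value was -0.12 without the mice labelled 121 and 124, -0.13 without 124 alone and -0.38 without aged CTL mouse 99, the mouse with 1 library.

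*Smad3* (chr9:63646767-63757994, minus strand), which encodes the other receptor-regulated SMAD of this pathway, was at 17.1, 30.9, 14.6 and 16.9 CPM in young CTL and at 9.73, 15.8, 21.3 and 18.4 CPM in young CKO mice. In aged mice it was at 53.9, 18.4, 48.1 and 39.0 CPM in CTL mice 65, 99, 114 and 124, and at 35.8, 32.3, 26.0, 41.7 and 46.4 CPM in CKO mice 78, 81, 94, 121 and 122. The genotypes overlapped at both ages, and all aged CKO mice lay above all young CKO mice. The log2 fold change between genotypes was -0.28 (SE 0.35) in young mice, and 0.02 without young CTL mouse 2. In aged mice it was -0.12 (SE 0.31), -0.21 without the mice labelled 121 and 124, -0.36 without CTL mouse 99 and 0.05 without CTL mouse 65.

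*Smad4*, on chromosome 18, encodes the partner that the other SMADs share. It was at 47.7, 70.5, 62.4 and 48.3 CPM in young CTL and at 84.8, 48.7, 40.8 and 98.7 CPM in young CKO mice. Among aged mice, CTL mice 65, 99, 114 and 124 were at 104, 134, 94.1 and 71.6 CPM, and CKO mice 78, 81, 94, 121 and 122 at 80.9, 72.1, 79.1, 70.0 and 76.0 CPM. Young CKO mice lay both above and below the young CTL range, and the aged CKO mice were close together (SD 4.58 CPM).

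The young log2 fold change of *Smad4* was 0.26 (SE 0.27, adjusted p = 0.916 by the quasi-likelihood test), and it ranged from 0.02 to 0.44 when each mouse was left out. The aged value was -0.41 (SE 0.20), -0.53 without the mice labelled 121 and 124, and -0.25 without CTL mouse 99. The aged groups overlapped only through the mouse labelled CTL 124, whose level was within the CKO range.

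The inhibitors follow. *Smad7*, on chromosome 18, encodes the SMAD that blocks the receptor. It was at 11.0, 12.7, 7.95 and 8.34 CPM in young CTL and at 4.57, 5.14, 21.1 and 6.79 CPM in young CKO mice. In aged mice it was at 9.69, 26.1, 32.7 and 25.8 CPM in CTL mice 65, 99, 114 and 124, and at 12.8, 36.7, 25.9, 16.9 and 16.1 CPM in CKO mice 78, 81, 94, 121 and 122. Young CKO mouse 3 lay above all other young mice, and the other 3 young CKO mice lay below all young CTL mice.

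The young log2 fold change of *Smad7* was -0.08 (SE 0.52), and without young CKO mouse 3 it was -0.85 and still did not pass the test. In aged mice it was -0.11 (SE 0.42), it ranged from -0.38 to 0.09 when each mouse was left out, and it was 0.0022 without the mice labelled 121 and 124. Young CKO mouse 3 therefore had the lowest *Tgfb1* and the highest *Smad7* of the young mice.

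*Ski* (chr4:155154075-155222592, minus strand), which encodes a SMAD corepressor, was at 22.0, 18.4, 12.1 and 11.3 CPM in young CTL and at 12.7, 15.4, 15.6 and 9.36 CPM in young CKO mice. The levels were 25.0, 48.1, 32.7 and 31.8 CPM in aged CTL mice 65, 99, 114 and 124, and 21.4, 23.6, 22.2, 26.8 and 27.0 CPM in aged CKO mice 78, 81, 94, 121 and 122. Aged CTL mouse 65 was the only aged CTL mouse within the aged CKO range. The log2 fold change was -0.26 (SE 0.36) in young mice, from -0.40 to -0.07 when each mouse was left out. In aged mice the value was -0.50 (SE 0.28), -0.59 without the mice labelled 121 and 124, and -0.30 without CTL mouse 99.

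*Skil* (chr3:31095058-31122577, plus strand), which encodes the related corepressor, was at 44.8, 28.2, 44.7 and 45.2 CPM in young CTL and at 40.5, 47.7, 65.3 and 44.8 CPM in young CKO mice. In aged mice it was at 42.0, 74.7, 53.6 and 67.8 CPM in CTL mice 65, 99, 114 and 124, and at 53.5, 87.1, 42.0, 54.3 and 80.8 CPM in CKO mice 78, 81, 94, 121 and 122. The genotypes overlapped at both ages. The log2 fold change was 0.29 (SE 0.23) in young mice, 0.13 without young CKO mouse 3 and 0.15 without young CTL mouse 2, and it was 0.11 (SE 0.26) in aged mice. The aged value was 0.21 without the mice labelled 121 and 124, it reached 0.23 without CTL mouse 99, and its sign changed without CTL mouse 65 or without CKO mouse 81 (-0.04 in each).

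**Figure D3:**
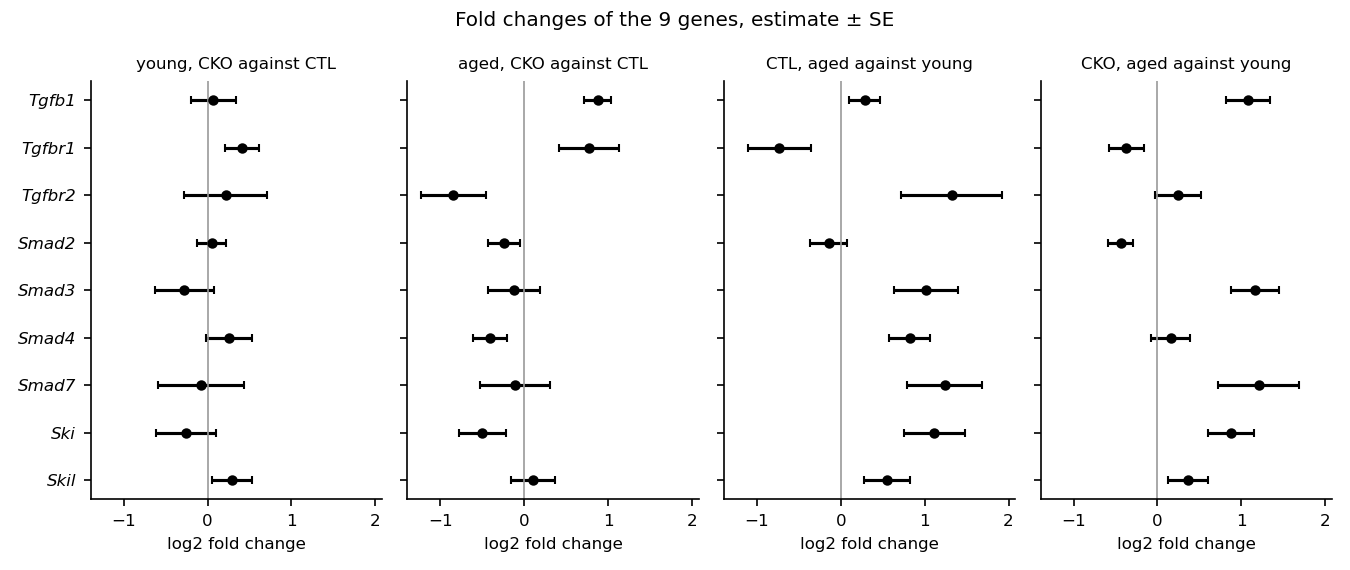
Log2 fold change (horizontal axis) of each of the 9 genes in the 4 comparisons, with bars of ± 1 SE from the edgeR fits. In aged mice, the comparison that chose the genes, *Tgfb1* is at 0.87 (SE 0.17) and 6 of the 9 genes lie below 0.

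In aged mice, 6 of the 9 genes had a negative log2 fold change, with a median of -0.12 beside -0.00328 over all genes. No gene of the 11961 tested was called between the aged genotypes, 0%, while 1208 had an unadjusted p under 0.05, and 76 genes were called by the likelihood ratio test of edgeR over mice and 104 by DESeq2. Without the mice labelled 121 and 124, the quasi-likelihood test called 40 genes.

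Ages were compared within each genotype for the 8 genes other than *Tgfb1*. Young and aged samples also carry different prefixes in the submitters' sample descriptions, and *Cd48* differed between ages, so age and sample series cannot be told apart. Reads of Y-linked genes were found in young CTL mice 1, 2 and 3 and in young CKO mouse 1. Among aged mice they were found in CTL mouse 99 and CKO mouse 78, and CTL mouse 114 had 1 such read. The sexes were thus not balanced between ages in CTL mice, nor between the young genotypes. The aged mice of both comparisons are those whose values chose the genes. Relative to the median of all genes, which was a log2 fold change of 0.11 in CTL and 0.07 in CKO mice, 6 of the 8 genes had a positive log2 fold change in each genotype.

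In CKO mice, 2 of the 8 genes rose and 1 fell with age, where 10.1% of 11873 genes were called higher and 11.6% lower. *Smad3* rose by a log2 fold change of 1.16 (SE 0.28), which is 2.24-fold, with an adjusted p of 0.0103 by the quasi-likelihood test. The call held when each mouse was left out, with log2 fold changes from 0.98 to 1.32. *Ski* rose by 0.87 (SE 0.27, adjusted p = 0.0352), while *Smad2* fell by 0.44 on the log2 scale (SE 0.15, adjusted p = 0.0480). The groups of young and aged CKO mice did not overlap for these 3 genes, as for 9.1% of all genes with aged mice higher and 12% with aged mice lower. The call for *Ski* was lost in 8 of the 9 fits that left out 1 mouse, all but that without young CKO mouse 3, with adjusted p-values of 0.0531 to 0.0844 in those 8. The call for *Smad2* was lost in all 9, with adjusted p-values of 0.0539 to 0.104.

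In CTL mice, none of the 8 genes passed the test between ages, where 3.33% of 11633 genes were called higher and 4.59% lower. *Smad4* and *Ski* came closest, and the young and aged CTL mice did not overlap for either gene, as for 7.25% of all genes with aged mice higher. Their log2 fold changes were 0.82 (SE 0.24, adjusted p = 0.0539) and 1.11 (SE 0.36, adjusted p = 0.0735, quasi-likelihood test). Without the mouse labelled aged CTL 124, *Smad4* passed, with a log2 fold change of 0.96 and an adjusted p of 0.0128, and *Ski* had a log2 fold change of 1.15 and fell just under the threshold of 0.05. *Smad3*, *Smad7* and *Tgfbr2* had log2 fold changes of 1.01 (SE 0.38), 1.24 (SE 0.45) and 1.32 (SE 0.60), with adjusted p-values of 0.114, 0.103 and 0.185. For *Tgfbr2* the value was 0.93 without young CTL mouse 4.

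The remaining genes did not pass in CKO mice. *Smad7* had a log2 fold change of 1.21 (SE 0.49, adjusted p = 0.0900) between ages in CKO mice, and without young CKO mouse 3 it rose by 1.98, with an adjusted p of 0.00784 by the same test. *Smad4*, *Skil*, *Tgfbr2* and *Tgfbr1* had log2 fold changes of 0.16, 0.36, 0.24 and -0.37 there, with adjusted p-values of at least 0.223. Whether an age difference in any of these genes itself differed between the genotypes was not tested. *Tgfb1*, given without a test, had a log2 fold change between ages of 0.28 (SE 0.18) in CTL and 1.08 (SE 0.26) in CKO mice, which were 0.17 without the mouse labelled aged CTL 124 and 0.82 without young CKO mouse 3.

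Levels of different genes were compared per kb of exon, from all exons of a gene in GENCODE M21. *Tgfb1* had the highest mean level of the 9 genes in each group, followed by *Smad4* and *Smad2*. In aged CKO mice the means were 63.3 ± 5.92 CPM per kb for *Tgfb1*, 20.4 ± 1.23 for *Smad4* and 8.03 ± 0.732 for *Smad2*, with no overlap between these 3 genes. In aged CTL mice the ranges of *Tgfb1*, at 34.8 ± 6.36 CPM per kb, and *Smad4*, at 27.2 ± 6.95, overlapped, as they did in young CKO mice. These are ranges over mice, and the genes were not compared within each mouse. The other 6 genes had means between 3.07 (*Tgfbr2*) and 6.58 CPM per kb (*Smad3*) in aged CKO mice, and between 2.21 (*Smad7*) and 6.05 CPM per kb (*Tgfbr1*) in young CTL mice. In aged CTL mice *Tgfbr1* was last of the 9 genes, at 3.59 ± 1.85 CPM per kb, and *Tgfbr2*, at 5.60 ± 3.43, overlapped with all 5 genes beside it.

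Both libraries of a mouse give a measure of the spread between samples of 100 cells, in the 16 mice with 2 libraries in use. The difference between library A and library B, as the size of the log2 ratio of CPM, had a median of 0.43 for *Tgfb1* and a maximum of 1.22. The 10 libraries of the 5 aged CKO mice ranged from 276.2 CPM (library A of mouse 81) to 444 CPM of *Tgfb1* (library A of mouse 78). All other libraries in use were lower, though library A of the mouse labelled aged CTL 124 reached 275.8 CPM. *Smad2* had the smallest median difference, 0.17, and *Tgfbr2* the largest, 0.98. For *Smad3* the median was 0.86, and young CKO mouse 1 was at 17.0 CPM in library A and at 1.26 CPM in library B.

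**Figure D4:**
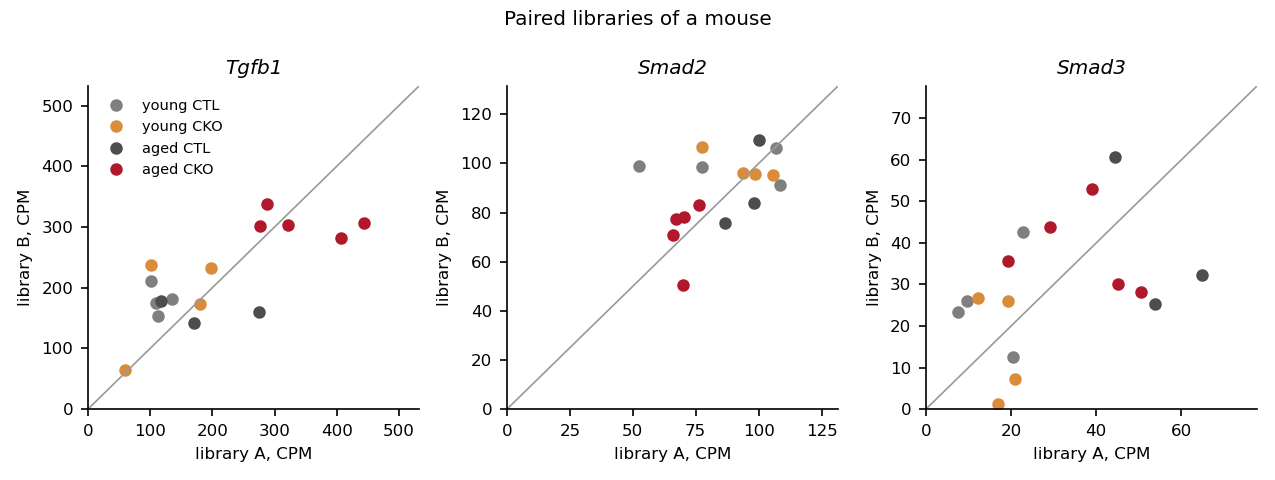
CPM of *Tgfb1*, *Smad2* and *Smad3* in library A (horizontal axis) and library B (vertical axis) of the 16 mice with both libraries in use, coloured by group, with a line of equal values. The aged CKO mice stand at 276 CPM or more in both libraries for *Tgfb1*, while *Smad3* has points far from the line.

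Genes were then ranked by how closely their pattern across mice followed that of *Tgfb1*. The measure was Pearson's r over log2 CPM (prior count 2) of the 17 mice after subtraction of the mean of each age. It was taken over 12351 genes, as a description of points that share library preparation and depth. Means of genotypes were not subtracted, so the aged genotype difference of *Tgfb1*, which chose the genes, is part of every r. The highest were *Noc2l* (0.85), *Fam111a* (0.85), *Fto* (0.84), *Spata6* (0.84) and *Akt2* (0.84), and the lowest were *Malat1* (-0.85) and *Lnpep* (-0.84). *Fto* encodes a demethylase of m6A and related marks, and its level was 65.5 ± 6.86 CPM in young CTL, 59.9 ± 26.8 CPM in young CKO, 92.5 ± 31.0 CPM in aged CTL and 136 ± 16.1 CPM in aged CKO mice. *Malat1*, a nuclear long noncoding RNA, was at 8217 ± 599 CPM in young CTL, 9248 ± 3338 CPM in young CKO, 6008 ± 1334 CPM in aged CTL and 3877 ± 201 CPM in aged CKO mice. The wide spread in young CKO mice came with mouse 3, the mouse with the lowest *Tgfb1* level, which had 23.8 CPM of *Fto* and 13968 CPM of *Malat1*, the lowest and the highest of its group. Without that mouse, in a calculation added after seeing the data, *Fam111a* kept an r of 0.85, *Noc2l*, *Fto*, *Spata6* and *Akt2* had 0.71 to 0.72 and ranked 69 to 81, and *Malat1* and *Lnpep* had -0.77 and -0.76.

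The other 8 TGF-β signaling genes lay between -0.48 (*Smad7*) and 0.23 (*Tgfbr1*) over the 17 mice. *Ski* had an r of -0.46, and -0.52 without young CKO mouse 3, while *Smad7* had -0.21 without that mouse. *Smad4*, at 0.12 over all mice, had an r of 0.69 over the 8 young and of -0.66 over the 9 aged mice, and the young value was 0.66 without mouse 3. The young values of *Tgfbr1* and *Skil* turned with that mouse, from -0.13 to 0.60 and from -0.50 to 0.44 without it, where the aged values were 0.40 and 0.20.

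Other genes of the pathway were read from a list of 79 genes, of which 62 were in the table. Between the young genotypes 57 were tested and none was called, by the quasi-likelihood test or by the likelihood ratio test over mice, while 5 had an unadjusted p under 0.05 by the quasi-likelihood test, where 7.06% of all genes did. Those with the smallest p were *Bhlhe40*, a target gene, at a log2 fold change of 0.98 (adjusted p = 0.506), *Fkbp1a*, whose product FKBP12 binds the TGFBR1 subunit, at -0.30 (adjusted p = 0.557), and *Cdkn1a*, which encodes the cell cycle inhibitor p21, at 1.16 (adjusted p = 0.609). Positive values were found for 28 and negative values for 29 of these genes.

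Between the aged genotypes 60 of the listed genes were tested and none was called by the quasi-likelihood test, while 10 had an unadjusted p under 0.05, where 10.1% of all genes did. Without the mice labelled 121 and 124 none was called, where 0.208% of all genes were called higher and 0.125% lower. *Ep300*, which encodes a histone acetyltransferase that works with SMADs, had a log2 fold change of -1.23 (SE 0.23, adjusted p = 0.205). Its mean level was 82.2 ± 16.9 CPM in aged CTL (n = 4) and 34.8 ± 7.18 CPM in aged CKO mice (n = 5), without overlap. *Cdkn1c*, a target gene that encodes the cell cycle inhibitor p57, had a log2 fold change of -1.22 (SE 0.31, adjusted p = 0.297), with means of 72.4 ± 23.7 and 30.8 ± 11.2 CPM and no overlap. Over all genes, 1.67% had aged groups that did not overlap with CKO lower. *Nrros*, of the list of ligands and latency, had no overlap with CKO higher, as did 1.81% of all genes. Its means were 394 ± 106 and 546 ± 63.9 CPM, with a log2 fold change of 0.47 (SE 0.20, adjusted p = 0.455 by the quasi-likelihood test). *Junb*, a target gene that encodes an AP-1 subunit, had a log2 fold change of 0.99 (SE 0.32, adjusted p = 0.361). The listed target genes, 10 tested, had a median log2 fold change of 0.48, with 7 positive and 3 negative values. The median was -0.07 over the 60 listed genes and -0.00328 over all genes tested. Aged medians of the other lists ran from -0.41 (BMP and activin branch) to 0.34 (non-SMAD branch). Between the young genotypes the target genes had a similar median, 0.37, also with 7 positive and 3 negative values.

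Within CTL mice, 6 of 58 listed genes rose with age and none fell, where 3.33% of all genes were called higher and 4.59% lower. These were *Eng*, the gene of the co-receptor endoglin (log2 fold change 1.15, adjusted p = 0.00963), *Ltbp3*, the gene of a protein that binds latent TGF-β (1.62, adjusted p = 0.0144), *Cdkn1c* (1.39, adjusted p = 0.0167), *Usp4*, a deubiquitinase that acts on TGFBR1 (0.87, adjusted p = 0.0204), *Cdkn1a* (2.34, adjusted p = 0.0209) and *Ep300* (1.02, adjusted p = 0.0289), by the quasi-likelihood test. The median of the list was 0.43. Without the mouse labelled aged CTL 124, 7 of the listed genes rose and none fell, where 6.41% of 11816 genes were called higher and 8.35% lower. Fits without each other CTL mouse are not given for these genes, and over all genes some of them called fewer than the main fit.

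Within CKO mice, 7 of 60 listed genes rose and 1 fell, where 10.1% of all genes were called higher and 11.6% lower, so the share that rose was near the background. Those that rose included *Junb* (log2 fold change 1.65, adjusted p = 0.00171), *Eng* (1.10, adjusted p = 0.00275), *Cdkn1a* (1.85, adjusted p = 0.00661), *Ltbp3* (1.31, adjusted p = 0.00781), *Smad1*, a SMAD of the BMP branch (0.74, adjusted p = 0.0119), *Usp4* (0.60, adjusted p = 0.0337) and *Bhlhe40* (1.64, adjusted p = 0.0344). *Usp9x*, which encodes a deubiquitinase of SMAD4, fell by 0.99 (adjusted p = 0.00635, quasi-likelihood test). *Eng*, *Ltbp3*, *Usp4* and *Cdkn1a* were called in both genotypes. *Cdkn1c* and *Ep300* had values of 0.22 and 0.41 in CKO mice and did not pass. The 2 age comparisons share no mice, but both are confounded with the sample series. Without the mouse labelled aged CKO 121, 10 of the listed genes were called, 8 higher and 2 lower, where 8.83% of 11728 genes were called higher and 11.4% lower.

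**Figure D5:**
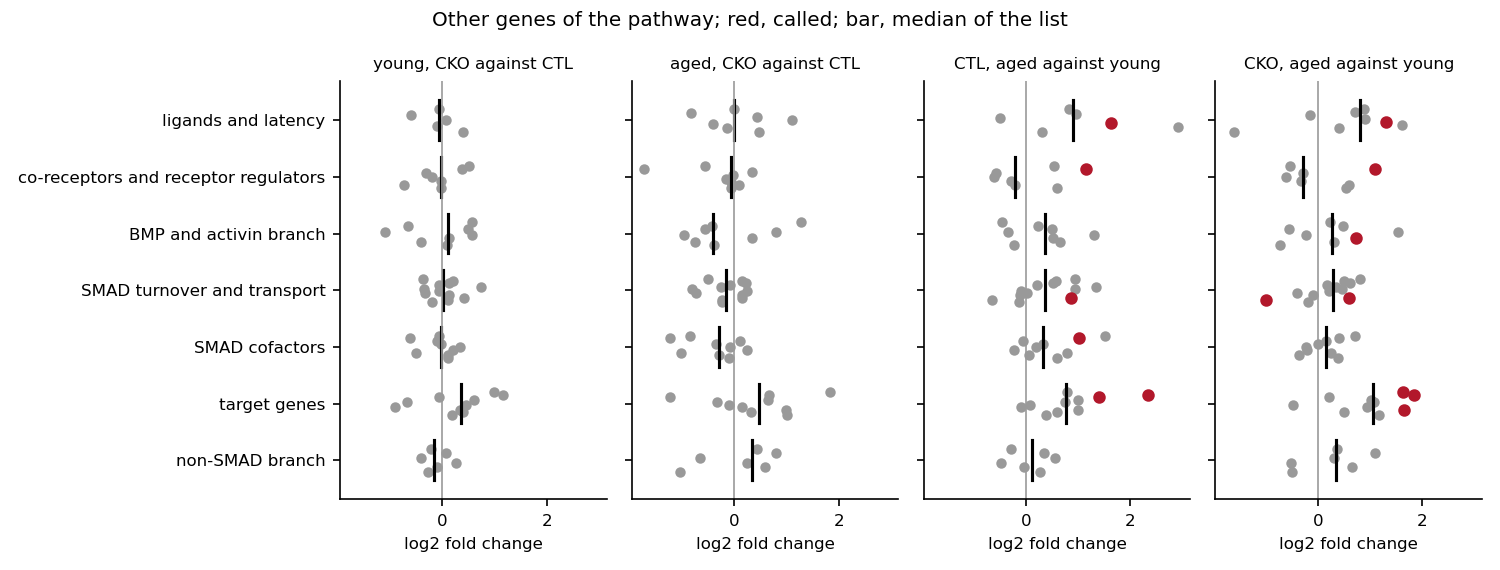
Log2 fold change (horizontal axis) of the tested genes of 7 lists of the TGF-β pathway other than the 9 genes, 1 point per gene, in the 4 comparisons; red points passed an adjusted p of 0.05 by the quasi-likelihood test and bars are list medians. No point is red between genotypes at either age, 6 are red between ages in CTL and 8 in CKO mice.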

How the data were processed

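RNA-seq libraries of 100 sorted HSCs were made by SMART-Seq2. The authors aligned reads with HISAT2 to GRCm38 (mm10 in the submitters' processing notes) and assigned them to genes with Rsubread, and they deposited raw whole-number counts for each library and gene. The annotation, strand use and treatment of shared reads are not given in the sources used here, so overlapping and antisense genes cannot be told apart.

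The 33 libraries of 17 mice were summed by mouse. In R 4.3.3, genes were kept by filterByExpr (minimum count 10, total 15), scaled by TMM and tested by edgeR 4.0.16 (quasi-likelihood test, Benjamini-Hochberg over all genes kept, threshold 0.05), separately for each comparison. Nothing in the labels states that mice came from separate litters or sorts. The paper states that controls were littermates, but not which of these mice shared a litter. The p-values measure the spread between mice. The 2 libraries of a mouse differed by more than sampling noise in all 16 mice with both. Alternatives were edgeR likelihood ratio tests over mice or libraries, DESeq2 1.42.0, RLE factors, no filter, a Y-linked covariate, the shallow library added back, a replicate block and each mouse left out. The method was tested on simulated data.

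The 9 genes and all lists were chosen with earlier results of these data known. Named besides are *Ythdf2*, up to 6 called pathway genes in each direction (or the 3 with the smallest p) and the genes with the highest 5 and lowest 2 correlations with *Tgfb1*. The 7th called gene in aged against young CKO mice is also named, and so is *Nrros*, for its aged groups without overlap. Sequences came from GENCODE M21 transcripts.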

Additional observations from a re-analysis of the deposited data

Results flagged for a closer look

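In 4 of 40 sets of values (10 genes in 4 groups of mice), 1 mouse lay far from the others of its group, by the gap to its nearest neighbour relative to the range of the group. Chance alone is expected to give this in about 1 of 20 sets, or 5%.

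*Ythdf2* was at 186 CPM in the mouse labelled aged CKO 121, where the next highest aged CKO mouse was at 87.7 CPM. *Smad3* was at 30.9 CPM in young CTL mouse 2, where the next was at 17.1 CPM. The same mouse had the lowest *Skil* level of its group, 28.2 CPM, with the next at 44.7 CPM. *Smad7* was at 21.1 CPM in young CKO mouse 3, where the next was at 6.79 CPM.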

How the results depend on the processing

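Between young genotypes, 20 genes were called in all; the likelihood ratio test called 67 over mice and 90 over libraries, DESeq2 77, the Y-linked covariate left 10, and leaving out each mouse gave 0 to 18. Between aged genotypes no gene was called (1208 at an unadjusted p under 0.05), against 76, 420 and 104 by those tests, 0 to 16 with a mouse left out and 40 without the mice labelled 121 and 124. Between ages in CTL mice, 921 were called, against 1517, 1863 and 1832, and 48 to 1744 with a mouse left out; in CKO mice 2583 were called, and 1604 to 2461 with a mouse left out. The cause was not tested.

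None of the 8 genes other than *Tgfb1* was called between young genotypes under any alternative. *Ythdf2*, in fits added after seeing the data, was not called there with the Y-linked covariate (adjusted p = 0.169) or the replicate block (0.128). The *Tgfb1* log2 fold change in aged mice ranged from 0.79 to 0.97 over all alternatives. This is a description only, as that comparison chose the genes and its groups did not overlap, which fixed the sign. With mouse number as a replicate block, 14 genes were called between young genotypes. In the labels, same-numbered mice shared only a number. Their correlations were -0.04 to 0.05, and in 2 of 4 pairs a mouse correlated best with its own number. Between ages in CTL mice, *Smad4* and *Ski* passed by the likelihood ratio tests, by DESeq2 and with the Y-linked covariate. In CKO mice *Smad2* was not called without the low-count filter or with that covariate. Each age comparison holds only 1 of the mice labelled 121 and 124, so leaving out both is there the fit without 1 mouse. Without young CKO mouse 3, the likeness to *Tgfb1* over mice changed sign for *Smad4* (r from 0.12 to -0.21) and *Skil* (from -0.11 to 0.24). CPM from unscaled totals kept the order of the group means of *Tgfb1*. Depth limits the lowest of these genes most. The lowest count, 14 for *Tgfbr2* in young CTL mouse 4, did not follow depth alone. Young CTL mouse 1, with both libraries shallower, had 99 counts.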
